A study of Canis lupus familiaris with 2 samples.

Results

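The imprinted DLK1-DIO3 region holds one of the largest clusters of miRNA genes in placental mammals, and the probes for its miRNAs were followed across both cultures of a canine mammary tumour cell line. The members were the array probes for dog miRNAs whose number belongs to this cluster, of either arm, taken by name. They numbered 35 of the 291 dog miRNA probes on the array. Of the 35, 12 gave a signal above the detection limit on at least 1 array and 23 gave none on either.

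In mammals the miRNAs of this region are made from the maternally inherited chromosome, where long non-coding transcripts such as MEG3 carry them, whereas DLK1, RTL1 and DIO3 are protein-coding genes expressed from the paternal copy. The miRNAs are known for high levels in embryo, placenta and brain and for low levels in most other adult tissues. Several of them, miR-127, miR-136, miR-432 and miR-433 among them, lie antisense to RTL1, and in the mouse such miRNAs guide cleavage of the Rtl1 mRNA.

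The cells were SNP cells, a single line from a canine mammary gland tumour. 3D-SNP, the spheroid culture, was started from non-adherent cells picked out of the medium and was grown with no added matrix. 2D-SNP, the monolayer culture, consisted of adherent cells kept in RPMI-1640 medium with fetal bovine serum and antibiotics. Both were harvested with trypsin near confluence, and 1 total RNA sample per culture, with an RNA integrity of 9.7 for spheroids and 9.8 for the monolayer, was labelled with Cy5 and hybridised to 1 array. Picking non-adherent cells and growing them as spheroids cannot be told apart in this design, and fewer cells carrying a miRNA cannot be told apart from less of it per cell. There was no replicate, so no difference has a test across samples, the number of arrays limits every value, and differences are described by their size. All 6 epithelial markers examined (miR-205 and the miR-200 family) were above the detection limit on both arrays, as were 178 of all 291 probes. They did not move together. In the authors' deposited values miR-205 was at 27.6 in spheroids and 170 in the monolayer, while miR-141, miR-200c and miR-429 were higher in spheroids. In the monolayer miR-200a and miR-200b were dim, at 3.16 and 3.25 SDs of the blank spots above their mean.

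A member was called detected where its raw intensity exceeded the mean of the blank spots by 2 of their SDs, which put the limit at 79.8 on the spheroid array and 89.8 on the monolayer array. The same calls follow from the empty cells of the authors' value table. On the spheroid array 12 of the 35 members (34.3%) were detected, where 69.1% of all 291 probes were. On the monolayer array 11 of 35 (31.4%) were detected, where 61.9% of all probes were. Those above the limit on at least 1 array were miR-665, miR-127, miR-432, miR-370, miR-494, miR-381, miR-487b, miR-487a, miR-134, miR-485, miR-377 and miR-409. These 12 correspond to 34.3% of the members, against 69.8% of all probes. Nearest to the spheroid limit were miR-381 with 80.1 above it and miR-539 with 79.5 below it. Nearest to the monolayer limit were miR-485 with 90.6 above it and miR-127 with 89.3 below it. Most detected members were dim, and only miR-370, miR-494, miR-487b and miR-409 cleared the blank mean by 5 SDs on both arrays. These 4 are 11.4% of the members, where 48.0% of the 256 other probes cleared it on both.

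**Figure D1:**
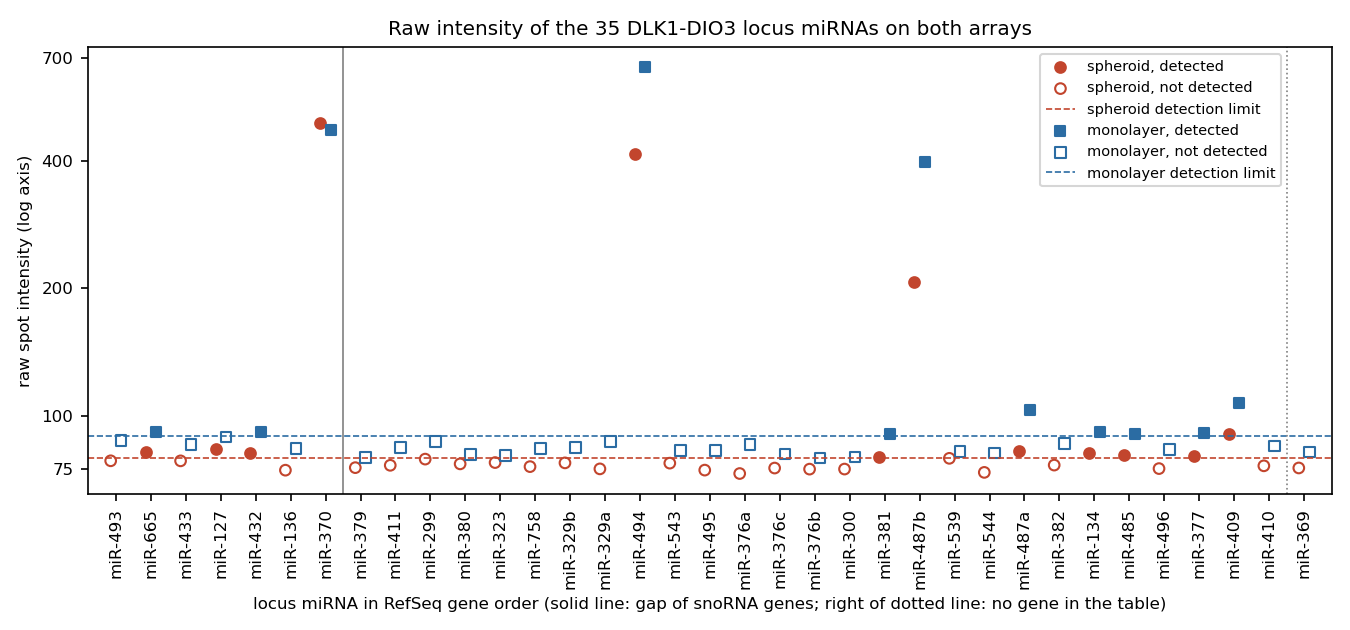
Raw spot intensity (log axis) of the 35 members in RefSeq gene order, with filled points for detected and open points for undetected members, circles for the spheroid array, squares for the monolayer array and dashed lines at the detection limits. miR-370, miR-494 and miR-487b stand far above both limits, at 207 or more on each array, while their neighbours lie at or near the limits.

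miR-494 and miR-487b were both more than 2-fold lower in spheroids in the deposited and the normalized values, though not under every scaling tried. Values are given on 2 scales. The authors' deposited values are linear intensities with the blank mean subtracted, and the normalized values are log2 intensities after background correction with an offset of 50 and quantile normalization, which draws dim spots together. The spot error given with a deposited difference combines the scatter of all blank spots with that of repeated control spots and leaves out variation between cultures, extractions and arrays.

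miR-494 had a raw intensity of 416 in spheroids and 664 in the monolayer. Its deposited values were 169 in spheroids and 354 in the monolayer, a log2 difference of -1.07 ± 0.07 (SD of spot error), or 2.10-fold lower in spheroids. The normalized difference was -1.15. Its spots lay 218.8 blank SDs above the blank mean in spheroids and 244.7 in the monolayer. The size of its difference depended on the scaling of the arrays and the background treatment, at -0.79 with median scaling, -0.69 with no scaling and -0.46 with the blank mean subtracted and spike control scaling together.

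miR-487b, which represses Polycomb group genes in human lung cells, had raw intensities of 207 in spheroids and 398 in the monolayer. The deposited values were 64.8 in spheroids and 191 in the monolayer, a log2 difference of -1.56 ± 0.08 (SD of spot error), or 2.95-fold lower in spheroids. The normalized difference was -1.35, and over the other scalings and background treatments it lay between -1.73 and -0.95. This was the widest gap among the members above 5 blank SDs on both arrays.

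miR-370, which lowers CPT1A, an enzyme of mitochondrial fatty acid import, in human liver cells, had a difference whose size and sign depended on scaling. Its raw intensity was 490.3 in spheroids and 471 in the monolayer, and its deposited values were 205.8 in spheroids and 236 in the monolayer. The deposited log2 difference was -0.20 ± 0.07 (SD of spot error) and the normalized one -0.52, but it turned positive with no scaling (0.08) and with the blank mean subtracted and spike control scaling together (0.41). No direction is given for miR-370.

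A difference between the log2 differences of 2 members does not depend on how the arrays are scaled to each other, apart from quantile normalization, which is not a common factor. miR-494 differed from miR-370 in this way by -0.87 in the deposited values and by -0.63 in the normalized values. miR-487b differed from miR-370 by -1.36 in the deposited values and by -0.82 in the normalized ones. On these arrays the bright members of the locus therefore did not share 1 ratio between the cultures. Over the 10 scalings and background treatments, the gap of miR-494 to miR-370 ranged from -0.87 to -0.60 and that of miR-487b to miR-370 from -1.36 to -0.74.

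miR-487a and miR-409 were dimmer but still set apart by more than their spot error in the deposited values. miR-487a had raw intensities of 82.6 in spheroids and 103 in the monolayer, which is 3.78 blank SDs above the blank mean in spheroids and 7.66 in the monolayer. Its deposited values were 2.91 in spheroids and 11.1 in the monolayer, a log2 difference of -1.92 ± 0.58 (SD of spot error), while the normalized difference was only -0.33. miR-487a and miR-487b carry related names, but cross-binding between the probes was not tested.

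miR-409, whose 3p form represses angiogenin in human fibrosarcoma cells, had raw intensities of 90.6 in spheroids and 108 in the monolayer. Its deposited values were 6.90 in spheroids and 13.8 in the monolayer, a log2 difference of -0.996 ± 0.30 (SD of spot error), and its normalized difference was -0.31. Both miR-487a and miR-409 were lower in spheroids in every scaling and background treatment tried, miR-487a by -1.92 to -0.25 and miR-409 by -1.28 to -0.22 on the log2 scale.

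**Figure D2:**
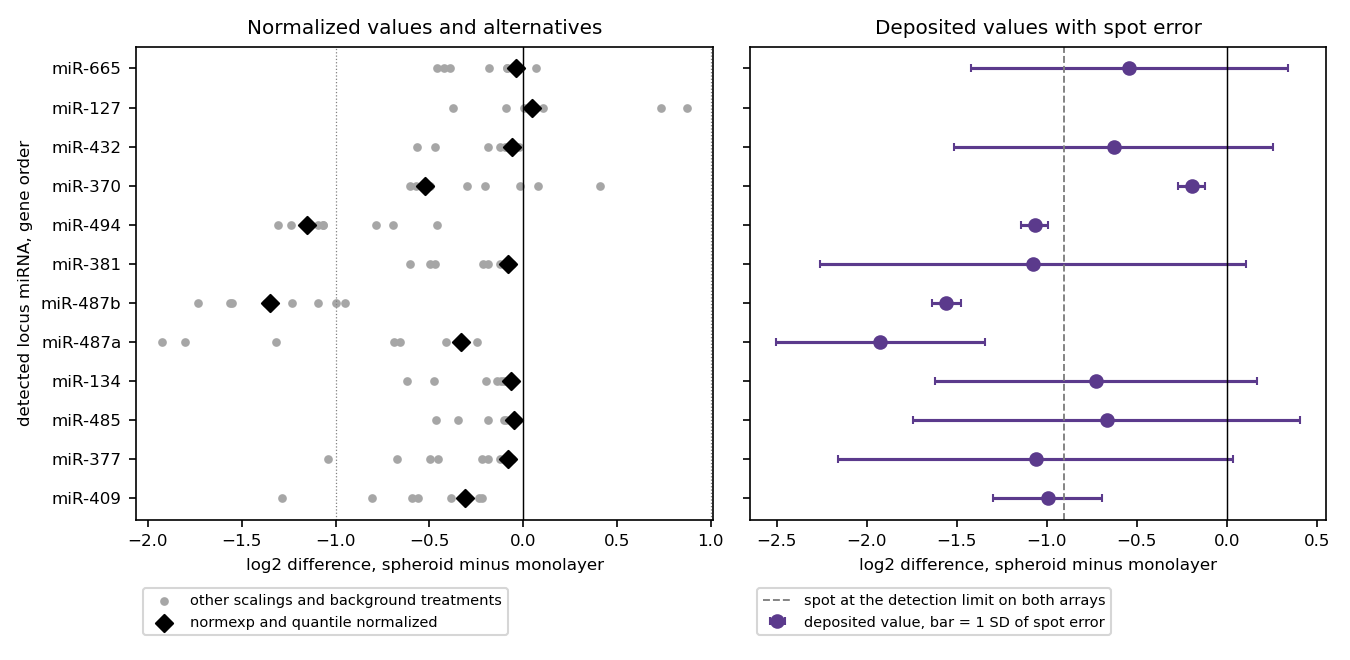
Log2 difference of spheroid minus monolayer for the 12 detected members. The left panel has the normalized values as diamonds and the alternatives as grey dots, with dotted lines at 2-fold; the right panel has the deposited values with bars of 1 SD of spot error and a dashed line at -0.91, where a spot at the detection limit of both arrays would fall. miR-494, miR-487b, miR-487a and miR-409 stay left of 0 in both panels, while the bars of 6 dim members cross 0.

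The other 6 members detected on both arrays were miR-665, miR-432, miR-381, miR-134, miR-485 and miR-377. miR-134 is known in rat neurons, where it represses Limk1 in dendritic spines, and miR-377 raises fibronectin in human kidney mesangial cells. Raw intensities of these 6 ran from 80.1 to 82.2 in spheroids and from 90.6 to 91.9 in the monolayer. That is 2.18 to 3.54 blank SDs above the blank mean in spheroids and 2.34 to 2.87 in the monolayer. Deposited values lay between 1.68 and 2.73 in spheroids and between 3.37 and 4.14 in the monolayer.

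All 6 had negative deposited differences, from -1.08 to -0.54, but each was smaller than its own spot error, which was 0.88 to 1.18. The normalized differences ran from -0.08 to -0.04. The deposited scale itself is uneven at the dim end: a spot exactly at the detection limit of both arrays would have a deposited value of 1.54 in spheroids and 2.89 in the monolayer, a log2 difference of -0.91. The 9 other miRNAs of the array that were detected on both arrays but under 5 blank SDs on each were also all negative, from -1.22 to -0.34 (median -0.83), beside a median of -0.70 over the 6 members. A difference between cultures was not detectable for these miRNAs at this signal.

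miR-127, which represses BCL6 in human cancer cells, was the member detected on 1 array only. Its raw intensity was 83.7 in spheroids and 89.3 in the monolayer, and its deposited value in spheroids was 3.47. That is 4.50 blank SDs above the blank mean in spheroids and 1.77 in the monolayer. Its spheroid value was 1.13-fold the lowest detected signal of the monolayer array in deposited units and 1.02-fold after normalization. No spot error was computed for these ratios. Its normalized difference of 0.05 was the single positive one among the 12, and it was -0.09 with median scaling and -0.37 with 75th percentile scaling. No direction is given for miR-127.

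As a list, the detected members lay mostly below 0, and 11 of the 12 had a negative normalized difference, where 50.7% of all 203 miRNAs detected on at least 1 array did. Their median normalized difference was -0.08, beside -0.01 over the 203. The negative members include the 6 dim ones. All 15 miRNAs of the array detected on both arrays and under 5 blank SDs on each were negative on this scale (median -0.06). Of the 11 members detected on both arrays, 2 were 2-fold or more lower (miR-494 and miR-487b), where 2.81% of the 178 miRNAs so detected were. None of the 11 was 2-fold or more higher, where 2.25% of the 178 were.

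In the deposited values all 11 members detected on both arrays were lower in spheroids, where 49.4% of the 178 were, and their median log2 difference was -0.996, that of miR-409, beside 0.00 over the 178. Of the 11, 5 were 2-fold or more lower, where 14.0% of all were, and 0 were 2-fold or more higher, where 12.9% of all were. The 5 were miR-494, miR-487b, miR-487a, miR-381 and miR-377. Lower by more than 2 SDs of spot error were also 5 of the 11, where 29.2% of the 178 were, while 36.0% of the 178 and 0 members were higher by that measure. These 5 were miR-494, miR-487b, miR-487a, miR-409 and miR-370, so that 3 members pass on both counts. The sign of miR-370 turned under other settings, and its place in this count gives it no direction.

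The count of 11 of 11 includes the 6 dim members. Of all 15 miRNAs detected on both arrays and under 5 blank SDs on each, 100% had a negative deposited difference and 20.0% were 2-fold or more lower, the 2 members miR-381 and miR-377 included. The negative signs of the 6 are thus those of every miRNA this dim. With a single spot per miRNA and array, none of these counts has a replicate check.

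**Figure D3:**
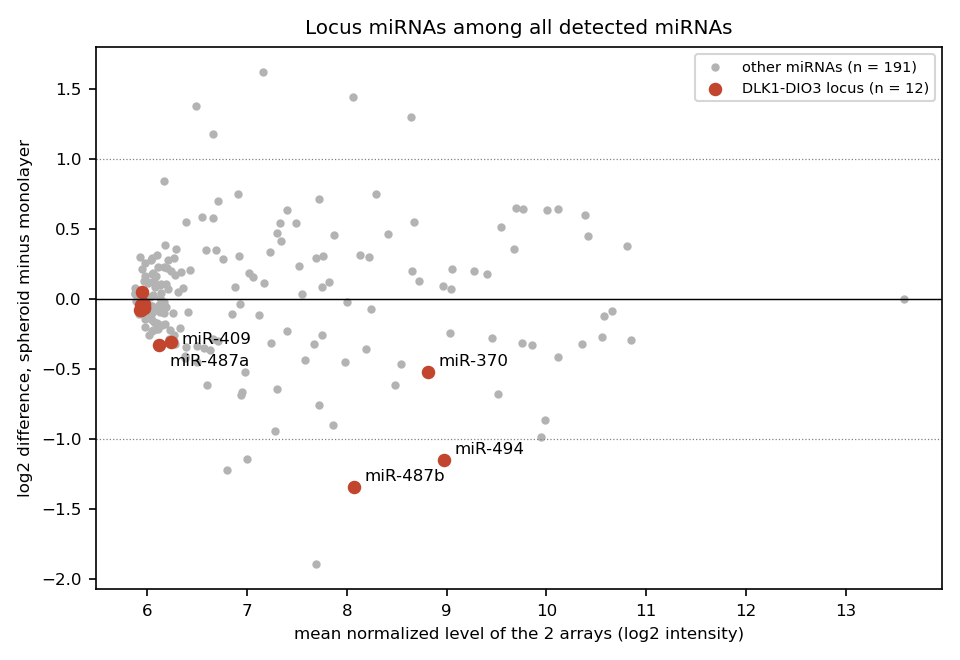
Normalized log2 difference of spheroid minus monolayer against the mean normalized level of both arrays for the 203 miRNAs detected on at least 1 array, with the 12 locus members in red and dotted lines at 2-fold. miR-494 and miR-487b lie below the lower line at -1.15 and -1.35, miR-370 lies at -0.52, and most other members crowd at the dim end close to 0.

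The level of the blank spots was not the same over the surface of the arrays. Across the 32 printed blocks, each with 44 blank spots, the block mean of the blanks ran from 75.2 to 79.6 on the spheroid array and from 81.9 to 88.7 on the monolayer array, a range larger than the 2 SDs that define detection. Each member was therefore also set against the blanks of its own block, a comparison chosen after seeing the data. By that limit 11 members were detected in spheroids, where 66.0% of all probes were, and 8 in the monolayer, where 60.8% were. Above it on both arrays were 8 members, where 58.8% of all probes were.

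The 8 were miR-370, miR-494, miR-487b, miR-409, miR-487a, miR-377, miR-665 and miR-127. miR-377 stood 3.40 block SDs above its blanks in spheroids and 4.75 in the monolayer, further than by the limit of the whole array. miR-127 stood 4.86 above in spheroids and 2.56 in the monolayer. miR-432, miR-134 and miR-485, which were printed in 1 block with high blanks, passed in spheroids but not in the monolayer, where they lay 1.18 to 1.62 block SDs above. miR-381 passed on neither array.

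With the block blanks subtracted and the authors' factors kept, 7 of the 8 members were lower in spheroids, where 46.8% of all miRNAs above their block limits were, and 4 were 2-fold or more lower, where 14.0% were. The values were -1.56 for miR-487b, -1.07 for miR-494, -1.80 for miR-487a, -1.04 for miR-377, -0.80 for miR-409, -0.42 for miR-665 and -0.20 for miR-370. miR-127 was at 0.03. The differences of miR-494, miR-487b and miR-370 thus moved by less than 0.01 from their deposited values. The counts include the dim members miR-377, with a spot error of 1.10 in the deposited values, and miR-665. All 6 miRNAs valued here and under 5 blank SDs on both arrays, these members included, were negative (median -0.75).

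**Figure D4:**
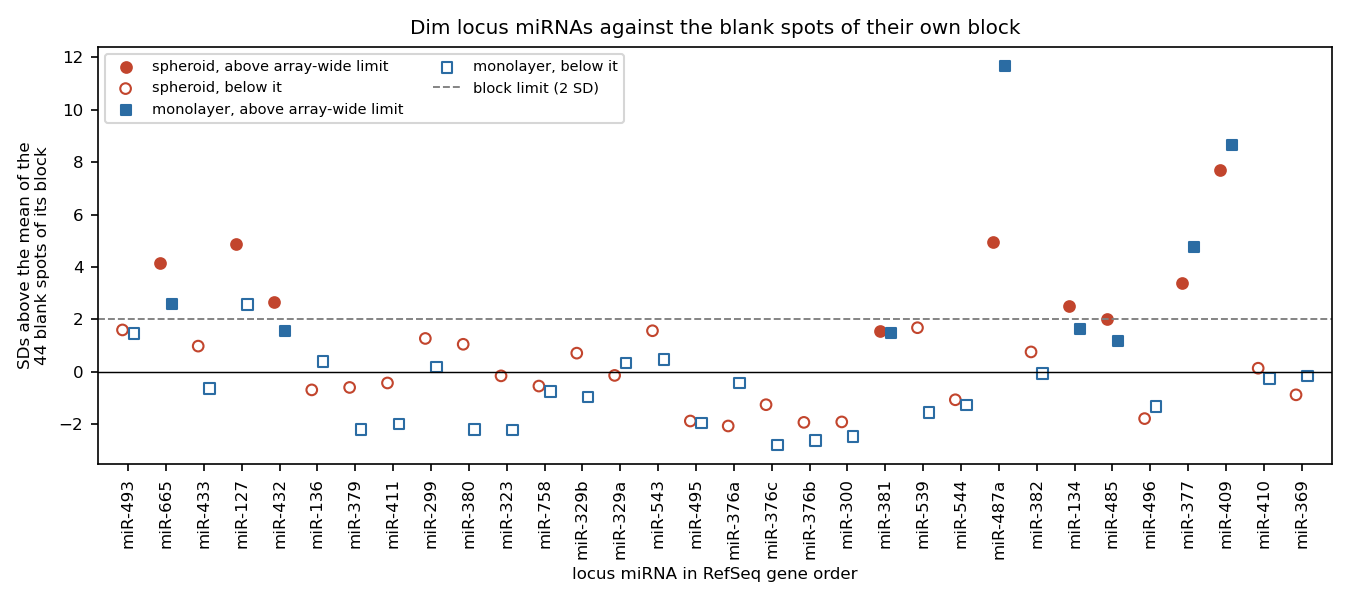
Distance of 32 members, all except miR-370, miR-494 and miR-487b, from the mean of the 44 blank spots of their own block, in SDs of those blanks, with circles for the spheroid array, squares for the monolayer array and filled points for members above the limit of the whole array. miR-487a and miR-409 stand clear of the dashed line at 2 SDs on both arrays, and miR-381 lies below it on both.

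The 23 undetected members were miR-493, miR-433, miR-136, miR-379, miR-411, miR-299, miR-380, miR-323, miR-758, miR-329a, miR-329b, miR-543, miR-495, miR-376a, miR-376b, miR-376c, miR-300, miR-539, miR-544, miR-382, miR-496, miR-410 and miR-369. Their raw intensities had a median of 76.0 in spheroids (73.2 to 79.5) and 83.4 in the monolayer (79.6 to 87.6). Below the blank mean, at 76.7 in spheroids and 85.1 in the monolayer, lay 15 of them in spheroids and 17 in the monolayer. The 65 undetected miRNAs from elsewhere had medians of 76.2 in spheroids and 83.4 in the monolayer, close to those of the undetected members. None of the 23 passed the limit of its own block either. miR-376a, an RNA editing target in human and mouse brain, had raw intensities of 73.2 in spheroids and 85.7 in the monolayer, which is -2.28 and 0.28 blank SDs from the blank mean of those arrays. These values show no signal of the 23 above the blanks at this sensitivity and do not show that they are absent.

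In the RefSeq table of the dog assembly UU_Cfam_GSD_1.0, 34 of the 35 members had a gene, all on chromosome 8 between DLK1 and DIO3, and miR-376a had 3. The order of these genes was used, and no position is given because the array carries none. The genes formed 2 runs: 7 members from MIR493 to MIR370, with RTL1 among them, and 27 from MIR379 to MIR410, with 62 listed genes between the runs, 52 of them snoRNAs and none a miRNA. In the run of 7 next to DLK1, 4 members were detected on at least 1 array, and in the run of 27 there were 8.

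The bright members did not sit side by side in gene order. miR-494 lies between miR-329a and miR-543 among the members, and both of these were undetected. miR-487b lies between miR-381, at the detection limit, and miR-539, which was undetected. miR-370 closes its run next to the undetected miR-136. In the deposited values, the 8 members of the longer run detected on both arrays had log2 differences from -1.92 to -0.67 (median -1.06), and the 3 of the shorter run had -0.63 to -0.20 (median -0.54). The nearest ends were miR-485 (-0.67 ± 1.07) and miR-432 (-0.63 ± 0.89), so spot error does not separate the runs. miR-381, miR-134 and miR-377 of the longer run and miR-665 of the shorter were also within their spot error. miR-127, detected on 1 array only, is in neither range. On the normalized scale the runs overlapped, at -1.35 to -0.05 (median -0.20) and -0.52 to -0.04 (median -0.06), and in the shorter run miR-370 was the only bright member.

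The locus held a smaller share of the summed deposited signal in spheroids. Its detected members summed to 466 in spheroids and 828 in the monolayer, which is 1.61% of the sum over all miRNAs in spheroids and 3.13% in the monolayer. Probes differ in how strongly they bind, so these are shares of signal and not of molecules. miR-494, miR-487b and miR-370 together gave 94.3% of the locus sum in spheroids and 94.2% in the monolayer. miR-494 alone held 0.582% of all signal in spheroids and 1.34% in the monolayer, and miR-487b held 0.224% in spheroids and 0.723% in the monolayer. miR-370 held 0.710% in spheroids and 0.893% in the monolayer. Without miR-494 the locus share was 1.03% in spheroids and 1.80% in the monolayer.

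Of 5 miRNAs from other imprinted genes that were looked for, 2 had a probe. miR-483, from an intron of IGF2, had deposited values of 9.01 in spheroids and 20.8 in the monolayer, a log2 difference of -1.21 (-0.41 normalized). miR-335, from MEST, was below the limit on both arrays. Markers of fibroblasts and smooth muscle, cells in which miRNAs of the DLK1-DIO3 region are also found, summed to 51.1 in spheroids and 73.3 in the monolayer over miR-199 and miR-214, with miR-143 and miR-145 below the limit on both arrays. That is 2 of 4 detected on each array, where 69.1% of all probes were in spheroids and 61.9% in the monolayer. Striated muscle markers had 5 of 8 detected on each array, where 69.1% of all probes were in spheroids and 61.9% in the monolayer. They summed to 21.9 in spheroids and 35.1 in the monolayer, with miR-1 below the limit on both. Among them miR-499 was at 8.80 in spheroids and 5.28 in the monolayer, a log2 difference of 0.74 ± 0.54 (SD of spot error). That difference was 0.10 normalized and -0.24 with 75th percentile scaling, so no direction is given for miR-499. In spheroids miR-206 and miR-133a were near the limit, at 2.31 and 2.27 blank SDs above the blank mean. Their deposited log2 differences had spot errors of 0.93 and 1.22. The deposited scale is uneven for spots this dim, which limits what the striated muscle sums show. Of 7 neural marker probes summed, 2 were detected on each array, miR-128 and miR-129, beside the same 69.1% and 61.9% of all probes. They gave 20.7 in spheroids and 15.5 in the monolayer, with miR-124 below the limit on both. The deposited log2 difference of miR-129, -0.25 ± 0.49 (SD of spot error), was within its spot error, so no direction is given for it. The planned neural list also held miR-138, whose 2 probes were left out of this count and sum. Both were detected on both arrays, miR-138a at 33.9 in spheroids and 21.6 in the monolayer. miR-138b was at 14.7 in spheroids and 6.89 in the monolayer. The part of these cell types in the locus values was not tested.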

How the data were processed

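Median spot intensities of 3200 spots were read from the authors' deposited scanner output, joined from scans at 3 gains per the file headers, with 1 spot per miRNA. The deposited value table holds normalized intensities that matched, within 0.026 percent, the raw intensity minus the mean of the blank spots (highest and lowest 5% left out, 1268 of 1408 used) times 0.498 for spheroids and 0.611 for the monolayer. Array software is not given in the sources used here.

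Normalized values are limma normexp (offset 50) over all spots, log2, then quantile normalized over 291 miRNAs. The calculation was tested on simulated arrays, with changes placed only in miRNAs well above the blanks. There the offset of 50 left some true changes short of 2-fold and blank subtraction did not, so the normalized 2-fold counts can miss changed miRNAs. Recovery of changes in miRNAs near the detection limit was not simulated. Differences are spheroid minus monolayer, and 2-fold was the threshold. Spot error combines the SD of all blank spots (2.12 in spheroids, 3.05 in the monolayer) with a log2 SD of 0.074 from 5 control probes with 8 spots each. Every detected member is named with its values, and each undetected one once. Members and lists were chosen with earlier results of these data known. Sequences were not used here. Tools were limma 3.58.1, R 4.3.3, Python 3.11.15, numpy 2.4.6, pandas 2.3.3 and matplotlib 3.10.9.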

Additional observations from a re-analysis of the deposited data

How the results depend on the processing

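The number of detected members depended on the limit: at the blank mean plus 5 SD it was 4 in spheroids, 5 in the monolayer and 5 on at least 1 array, and plus 3 SD it was 5 in the monolayer, against 12, 11 and 12 at 2 SD. Limits from the negative controls, all blank spots or block blanks left 8 to 11. Members 2-fold or more lower numbered 2 in the normalized values, 4 with the blank mean subtracted, 1 with median scaling, 0 with no scaling (miR-487b just short of 2-fold), 1 with the blank mean subtracted and spike control scaling together, 5 in the deposited values and 4 with block blanks subtracted, and 0 were 2-fold or more higher in any of these. The share of all miRNAs 2-fold or more lower was 2.81% in the normalized values and 14.0% both in the deposited values and with block blanks. It was not computed for the other settings. Negative differences numbered 9 to 12 of 12 under the 7 other settings that valued all 12, 11 of 11 in the deposited values and 7 of 8 with block blanks, where fewer members were valued. Of all 203 miRNAs detected on at least 1 array, 146 were negative with 75th percentile scaling, where 12 of 12 members were. With the blank mean subtracted and spike control scaling together it was 58 of the 203, beside 9 of 12 members. The median log2 difference of the members, -0.08 in the normalized values, was -0.61 with the blank mean subtracted, -0.19 with an offset of 16, -0.21 with median scaling, -0.49 with 75th percentile scaling, -0.25 with the blank mean subtracted and spike control scaling together, -0.996 in the deposited values, -0.92 with block blanks and -0.84 over the 4 members above 5 SD on both arrays. The median over all detected miRNAs was -0.30 with 75th percentile scaling and 0.61 with the blank mean subtracted and spike control scaling together, against -0.01 in the normalized values. The cause of these shifts was not tested. miR-665 was at 0.07 with the blank mean subtracted and spike control scaling together and negative in every other setting. No paired analysis was possible because each culture had 1 sample, and no replicate could be left out. The planned description of seeds and near-identical sequences was not run.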
